A study of Mus musculus with 18 samples.

Results

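The genes described here are 53 mouse genes of DNA replication and S phase entry: the origin licensing and helicase genes, the replicative polymerases, the sliding clamp and its loader, the nucleotide supply enzymes, and the cyclin E and E2F genes that open S phase. They were matched by symbol, and all 53 stood among the 25628 rows of experiment 1 and the 26903 rows of experiment 2. All 53 passed the filter on low counts in both experiments. The series measured polyadenylated RNA in 18 libraries of leukemic erythroid cells grown with EPO, taken from mice that carry a Spi1 transgene and so overproduce the transcription factor SPI1 (PU.1). Every group carries that transgene and a doxycycline-inducible short hairpin RNA against Spi1.

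In experiment 1, cells with doxycycline for 48 h (Exp1_Dox) were set against cells without it (Exp1_NoDox). Experiment 2 had 4 groups: doxycycline for 48 h with 3 µM entinostat for 6 h (Dox_Entinostat), entinostat without doxycycline (NoDox_Entinostat), doxycycline with DMSO, the vehicle (Dox_DMSO), and DMSO without doxycycline (NoDox_DMSO). Entinostat inhibits class I histone deacetylases. Each group had 3 libraries, which the labels call biological replicates of 1 cell line. None of the 6 groups carried a control hairpin, so a doxycycline effect holds the drug and the loss of Spi1 together. The 48 h and 6 h exposures also differ, so the sizes of the doxycycline and entinostat effects are not compared with each other.

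Before S phase, the origin recognition complex with Cdc6 and Cdt1 loads the Mcm helicase onto origins as an idle ring. Cyclin E with its kinase then allows Cdc45 and the GINS complex to switch the helicase on, and the polymerases, the clamp Pcna and its Rfc loader follow the opened strands. Most of these genes are known targets of the E2F factors, which retinoblastoma proteins hold back until the cell commits to divide, and fast-dividing erythroid progenitors express them strongly.

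Promoter sequence is one feature the choice of genes did not use. RefSeq promoter windows of GRCm38.p6 (mm10) matched 45 of the 53 genes by symbol. The unmatched genes were Mcm4, Gins1, Gins2, Gins4, Prim2, Rfc2, Pole and Ccne2. The 250 bases before each start were searched on both strands for the E2F-type letters TTTCCCGC, TTTGGCGC and TTTCGCGC, which may overlap one another, and for the NF-Y-type letters CCAAT. A gene was counted where the window of any of its listed starts held a match. An E2F-type match stood in 11 of the 45 genes (24.4%), against 480 of 27025 genes in the whole table (1.78%). The whole table was not limited to genes expressed in these cells. These 11 genes were Mcm5, Mcm6, Mcm7, Cdc6, Gins3, Orc1, Rfc3, Pola1, Cdc25a, E2f3 and Dtl. CCAAT stood in 28 of the 45 genes (62.2%), against 37.5% of the genes in the whole table. A match is a string of letters and not a measured binding site. The windows of 5 genes are printed 5′ to 3′ on the strand of the gene, since the results below turn on these genes: Cdc25a, Orc1 and Dtl were among the 5 largest falls with entinostat without doxycycline, Cdc6 loads the helicase, and Ccne1 passed the test in all 5 comparisons of a treatment with its control. Capitals mark the E2F-type and NF-Y-type letters on either strand. The windows lie at chr9:109875329-109875578 (Cdc25a, plus strand), chr4:108579204-108579453 (Orc1, plus), chr1:191575545-191575794 (Dtl, minus), chr11:98907901-98908150 (Cdc6, plus) and chr7:38107491-38107740 (Ccne1, minus).
Cdc25a: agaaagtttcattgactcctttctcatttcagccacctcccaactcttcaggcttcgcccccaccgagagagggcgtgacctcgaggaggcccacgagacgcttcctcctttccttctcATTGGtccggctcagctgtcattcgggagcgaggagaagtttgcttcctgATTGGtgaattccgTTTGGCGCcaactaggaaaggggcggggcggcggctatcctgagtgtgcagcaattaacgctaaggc
Orc1: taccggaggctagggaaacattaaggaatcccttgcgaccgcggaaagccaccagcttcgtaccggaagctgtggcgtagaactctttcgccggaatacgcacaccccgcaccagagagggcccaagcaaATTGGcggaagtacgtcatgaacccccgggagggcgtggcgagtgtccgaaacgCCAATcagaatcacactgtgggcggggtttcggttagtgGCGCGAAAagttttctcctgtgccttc
Dtl: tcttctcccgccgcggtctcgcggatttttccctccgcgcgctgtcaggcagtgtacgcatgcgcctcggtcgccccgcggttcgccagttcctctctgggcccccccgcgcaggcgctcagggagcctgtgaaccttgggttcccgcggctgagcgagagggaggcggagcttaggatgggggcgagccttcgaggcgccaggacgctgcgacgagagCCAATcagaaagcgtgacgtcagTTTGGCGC
Cdc6: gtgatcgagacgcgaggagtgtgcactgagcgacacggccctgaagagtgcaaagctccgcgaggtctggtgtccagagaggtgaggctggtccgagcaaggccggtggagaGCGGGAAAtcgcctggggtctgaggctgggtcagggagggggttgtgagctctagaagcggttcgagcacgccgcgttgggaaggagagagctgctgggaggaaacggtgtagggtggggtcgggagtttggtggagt
Ccne1: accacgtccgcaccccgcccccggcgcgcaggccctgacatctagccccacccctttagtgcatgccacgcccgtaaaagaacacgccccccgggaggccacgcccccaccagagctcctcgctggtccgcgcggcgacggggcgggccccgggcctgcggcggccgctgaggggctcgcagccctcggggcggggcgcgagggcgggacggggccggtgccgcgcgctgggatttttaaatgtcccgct
In the Cdc25a window TTTGGCGC began 67 bases before the start, between it and the nearer ATTGG, which is CCAAT read on the other strand. In the Dtl window the same letters were the last 8 bases before the start. The Orc1 window held GCGCGAAA, the reverse complement of TTTCGCGC, from 27 bases before the start. The Cdc6 window held GCGGGAAA, the reverse complement of TTTCCCGC, from 138 bases before the start, and no CCAAT. None of the searched letters stood in the Ccne1 window. The RefSeq starts lay 0 bases (Cdc25a and Dtl), 31 bases (Orc1), 44 bases (Ccne1) and 350 bases (Cdc6) downstream of the first base of the gene in GENCODE M21, so by that annotation the printed Cdc6 stretch lies inside the gene.

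Library totals were 82674499 to 113804574 counts in experiment 1 and 43116322 to 48855905 counts in experiment 2, of which the 53 genes took 0.907 to 1.09% and 0.671 to 1.15%. Spi1, the hairpin's target, had 133, 125 and 132 CPM (counts relative to the scaled library total) in Exp1_Dox, against 379, 455 and 459 CPM in Exp1_NoDox (log2 fold change -1.73 ± 0.098 (SE), edgeR adjusted p = 0.000828). In experiment 2 it had 98.5, 162 and 132 CPM in Dox_Entinostat, against 221, 480.3 and 482 CPM in NoDox_Entinostat (log2 fold change -1.59 ± 0.33 (SE), edgeR adjusted p = 0.00722). With DMSO it had 59.5, 126 and 105 CPM in Dox_DMSO, against 199.6, 259 and 251 CPM in NoDox_DMSO (log2 fold change -1.29 ± 0.33 (SE), edgeR adjusted p = 0.0264). All 10 erythroid markers examined reached 1 CPM in every group, and their summed level was higher with doxycycline: 5834 to 6887 CPM in Exp1_Dox against 3850 to 4560 CPM in Exp1_NoDox, 4915 to 5413 CPM in Dox_Entinostat against 3115 to 3477 CPM in NoDox_Entinostat, and 4838 to 5831 CPM in Dox_DMSO against 3505 to 3809 CPM in NoDox_DMSO. Tfrc took a large part of these erythroid sums, with 2868 to 4914 CPM in experiment 1 and 1690 to 4161 CPM in experiment 2. The erythroid markers are not compared singly here. Summed markers of B cells, of T and NK cells and of neutrophils stayed below 0.5 CPM in every library. The 5 monocyte and macrophage markers summed to 1.57 to 2.14 CPM in Dox_Entinostat against 0.237 to 0.540 CPM in Dox_DMSO, and to 6.07 to 8.34 CPM in NoDox_Entinostat against 0.921 to 1.17 CPM in NoDox_DMSO, with Adgre1 and Mrc1 at a median of 0 and Lyz2 reaching 6.60 CPM. The 4 stromal and endothelial markers listed in experiment 2 summed to 1.03 to 2.91 CPM in Dox_Entinostat against 0.0432 to 0.0646 CPM in Dox_DMSO, and to 1.79 to 2.25 CPM in NoDox_Entinostat against 0.109 to 0.180 CPM in NoDox_DMSO, with Col1a2 and Pdgfrb at a median of 0. The part of these markers in the results was not tested.

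The first Dox_DMSO and first NoDox_Entinostat libraries stood apart from the other 2 of their groups. Relative to each gene's mean, log2 CPM fell with transcript length in these 2 libraries (slopes of -0.19 and -0.23 per log2 unit of length) and in all 3 Dox_Entinostat libraries (-0.18 to -0.24). It rose with length in the other Dox_DMSO and NoDox_Entinostat libraries (0.21 to 0.24), and the NoDox_DMSO slopes lay from -0.018 to 0.12. Results of experiment 2 are therefore given with all 12 libraries and, where the calls differ, without these 2, and also after a trend over length and GC content had been removed from every library. The 2 libraries were picked from these same counts. Leaving them out leaves 2 libraries in each of the 2 groups and narrows the spread within them. Adjusted p-values of that fit are therefore not independent support.

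Per kb of transcript, the level in NoDox_DMSO ran from 10.6 ± 1.34 CPM per kb for Pole, the catalytic subunit of polymerase epsilon, to 419 ± 28.8 for Pcna (SD, n = 3). Rfc4, a clamp loader subunit, stood next with 227 ± 17.7 CPM per kb, then Rrm1 with 179.9 ± 12 and Mcm3 with 170.3 ± 13.7, and the spreads of Rrm1 and Mcm3 overlapped. The E2f1, E2f2 and E2f3 activators lay among the lowest 5 genes on this scale (14.8 ± 0.85, 13.5 ± 1.91 and 12.7 ± 1.10 CPM per kb), and the spread of E2f2 overlapped that of each of the other two.

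**Figure D1:**
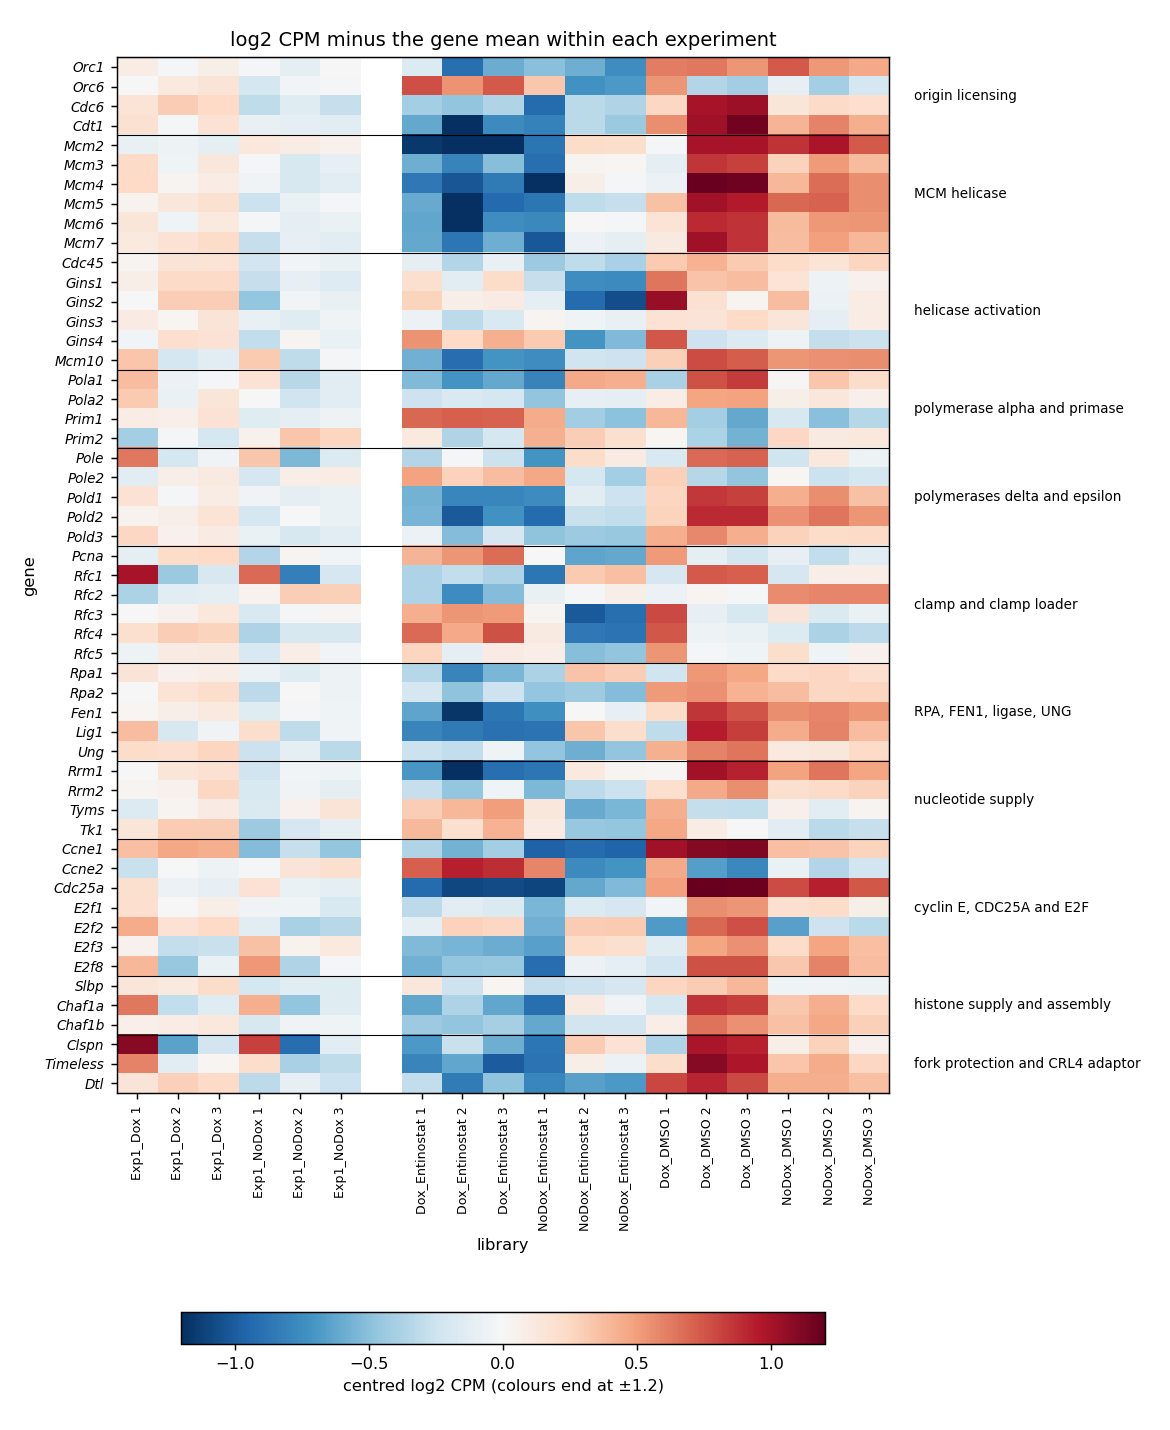
Heatmap of log2 CPM minus the gene's mean within each experiment for the 53 genes (rows, by role) in the 18 libraries (columns); red is above the gene's mean, blue below, and colours end at ±1.2. Most rows are blue in the entinostat columns and red in the DMSO columns. Several rows are red in Dox_Entinostat, among them Orc6, Pcna, Prim1, Rfc3, Rfc4, Ccne2, Gins4, Tyms, Tk1 and Pole2. The first NoDox_Entinostat and Dox_DMSO columns differ from their neighbours.

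Most of these genes lay higher with doxycycline in experiment 1, led by cyclin E1, and how many passed the test depended on whether the libraries were paired. The test called 10 of the 53 higher and 0 lower, where 5.26% of all 13811 genes tested were called higher and 8.36% lower. The median log2 fold change was 0.21 over the 53 genes and 0.023 over all genes, and 45 of the 53 lay above 0. At an unadjusted p under 0.05 stood 24 of the 53, and 3622 of all 13811 genes. DESeq2 called 12 of the 53 higher and 2 lower, and limma-voom called 9 and 0. The shares of all genes called by DESeq2 and limma-voom are not given here. Calls are by edgeR's quasi-likelihood test at an adjusted p under 0.05. In bulk RNA, a different share of cells in S phase and a different amount of RNA per cell cannot be told apart, here or in the comparisons that follow.

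Ccne1, the cyclin that drives entry into S phase with its kinase, had 149, 161 and 157 CPM in Exp1_Dox, against 80.7, 96 and 84.1 CPM in Exp1_NoDox (log2 fold change 0.84 ± 0.089 (SE), edgeR adjusted p = 0.00278). Every Exp1_Dox library lay above every Exp1_NoDox library. E2f2, an activating E2F, had 132, 109 and 114 CPM in Exp1_Dox, against 87.9, 73.6 and 76.6 CPM in Exp1_NoDox (log2 fold change 0.57 ± 0.11 (SE), edgeR adjusted p = 0.0196). Its lowest Exp1_Dox library lay above its highest Exp1_NoDox library. Rfc4 had 271, 291 and 285 CPM in Exp1_Dox, against 183, 207 and 208 CPM in Exp1_NoDox (log2 fold change 0.50 ± 0.080 (SE), edgeR adjusted p = 0.0103). Tk1, which salvages thymidine, had 80.2, 89.5 and 89.2 CPM in Exp1_Dox, against 53.4, 62.9 and 66.9 CPM in Exp1_NoDox (log2 fold change 0.50 ± 0.11 (SE), edgeR adjusted p = 0.0299). Cdc6, the helicase loader, had 181, 199.7 and 191 CPM in Exp1_Dox, against 131, 146 and 133 CPM in Exp1_NoDox (log2 fold change 0.48 ± 0.079 (SE), edgeR adjusted p = 0.0119). For each of these genes the groups did not overlap. Slbp, which binds the tail of histone mRNAs, had 195, 192 and 206 CPM in Exp1_Dox, against 152, 161 and 160.0 CPM in Exp1_NoDox (log2 fold change 0.33 ± 0.068 (SE), edgeR adjusted p = 0.0255). The other 4 called rises were Ung, which removes uracil from DNA (0.45 on the log2 scale), Dtl, the adaptor that marks Cdt1 for destruction (0.44), the GINS subunit Gins1 (0.36) and the helicase subunit Mcm7 (0.34).

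Several core S phase genes did not pass in experiment 1. Mcm5, a helicase subunit, had 565, 605 and 622 CPM in Exp1_Dox, against 459, 520.5 and 538 CPM in Exp1_NoDox (log2 fold change 0.24 ± 0.089 (SE), edgeR adjusted p = 0.150). Cdt1, which brings the helicase to origins, had 141, 124 and 140.2 CPM in Exp1_Dox, against 117, 115 and 113 CPM in Exp1_NoDox (log2 fold change 0.23 ± 0.078 (SE), edgeR adjusted p = 0.121). The groups did not overlap for either gene. Rrm2, the regulated subunit of ribonucleotide reductase, had 314, 318 and 365 CPM in Exp1_Dox, against 270.0, 298 and 285 CPM in Exp1_NoDox (log2 fold change 0.22 ± 0.088 (SE), edgeR adjusted p = 0.169). E2f1 had 63.5, 55.3 and 58.0 CPM in Exp1_Dox, against 53.6, 53.3 and 48.7 CPM in Exp1_NoDox (log2 fold change 0.18 ± 0.089 (SE), edgeR adjusted p = 0.263), again without overlap. Pcna had 385, 482 and 489 CPM in Exp1_Dox, against 325, 425 and 407 CPM in Exp1_NoDox (log2 fold change 0.23 ± 0.14 (SE), edgeR adjusted p = 0.390), and its groups overlapped. In the other direction Mcm2 had 333, 339 and 326 CPM in Exp1_Dox, against 386, 377 and 367 CPM in Exp1_NoDox (log2 fold change -0.18 ± 0.064 (SE), edgeR adjusted p = 0.135). Its 3 Exp1_Dox libraries were all lower. Ccne2, the second cyclin E, had 81.1, 96.8 and 93.2 CPM in Exp1_Dox, against 96, 108 and 111 CPM in Exp1_NoDox (log2 fold change -0.22 ± 0.10 (SE), edgeR adjusted p = 0.239), with overlap.

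Same-numbered libraries of experiment 1 deviated together, although the labels give replicate numbers and no batch. With the replicate number as a block, 39 of the 53 genes were called higher and 5 lower, where 26.1% and 24.7% of all genes were. Of the genes above that did not pass, Mcm5 had a log2 fold change of 0.24 (adjusted p = 0.000359), Pcna of 0.23 (adjusted p = 0.000385), Cdt1 of 0.22 (adjusted p = 0.00257), Mcm2 of -0.18 (adjusted p = 0.00141) and Ccne2 of -0.22 (adjusted p = 0.000917). The other 3 genes called lower with the block were Rfc2 at -0.41 (adjusted p = 6.55e-06), Prim2 at -0.43 (adjusted p = 2.30e-05) and E2f3 at -0.34 (adjusted p = 6.16e-05). Without the block the count changed when single libraries were left out. Without replicate 3 of Exp1_Dox or of Exp1_NoDox 1 gene was called higher, without replicate 2 of Exp1_Dox 3, and without replicate 1 or 2 of Exp1_NoDox 5. Each of these fits had fewer libraries, and its share of all genes called is not given here. The counts are therefore not read as particular to the 53 genes.

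With DMSO vehicle in experiment 2, Ccne1 was again higher with doxycycline and 1 gene, Rfc2, was lower. Of the 53 genes 1 was called higher and 1 lower, where 3.77% and 5.53% of 15051 genes tested were. The median log2 fold change was 0.21 over the 53 genes and 0.052 over all genes, and 49 of the 53 lay above 0. Experiment 1 and this comparison share no libraries, and 49 of the 53 fold changes had the same sign in both, the exceptions being Ccne2, E2f8, Mcm10 and Tyms. Over all 12640 genes tested in both, 81.6% had the same sign.

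Ccne1 had 154, 164 and 166 CPM in Dox_DMSO, against 98.2, 96.9 and 92.3 CPM in NoDox_DMSO (log2 fold change 0.75 ± 0.13 (SE), edgeR adjusted p = 0.00215). Rfc2, a clamp loader subunit, had 183, 197 and 189 CPM in Dox_DMSO, against 284, 289 and 289 CPM in NoDox_DMSO (log2 fold change -0.60 ± 0.15 (SE), edgeR adjusted p = 0.0234). Both genes had groups that did not overlap, and the Rfc2 value in experiment 1 was -0.41 ± 0.11 (adjusted p = 0.0609), or -0.41 (adjusted p = 6.55e-06) with the replicate block. Cdc6 had 117, 196 and 200.1 CPM in Dox_DMSO, against 109, 115 and 113 CPM in NoDox_DMSO (log2 fold change 0.60 ± 0.22 (SE), edgeR adjusted p = 0.116). E2f2 had 52.6, 135 and 143 CPM in Dox_DMSO, against 53.5, 70.8 and 66.9 CPM in NoDox_DMSO (log2 fold change 0.79 ± 0.33 (SE), edgeR adjusted p = 0.196). In both of these the first Dox_DMSO library lay far below the other 2. Slbp had 212, 219.6 and 233 CPM in Dox_DMSO, against 171, 172 and 169.6 CPM in NoDox_DMSO (log2 fold change 0.37 ± 0.15 (SE), edgeR adjusted p = 0.168), with no overlap. The remaining genes named in every comparison did not pass either, and their values in each library stand with the entinostat comparisons below. Their log2 fold changes with doxycycline in DMSO were -0.14 ± 0.30 for Mcm2, 0.15 ± 0.24 for Mcm5, 0.45 ± 0.20 for Cdt1, 0.27 ± 0.24 for Pcna, 0.18 ± 0.17 for Rrm2, 0.0044 ± 0.37 for Ccne2 and 0.21 ± 0.18 for E2f1.

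Without the first Dox_DMSO and NoDox_Entinostat libraries, this comparison held 2 Dox_DMSO and 3 NoDox_DMSO libraries. Of the 53 genes 23 were then called higher and 3 lower with doxycycline in DMSO, where 17.4% and 13.9% of all genes were. Cdc6 then had a log2 fold change of 0.81 (adjusted p = 1.74e-05), E2f2 of 1.13 (adjusted p = 3.20e-05) and Cdt1 of 0.61 (adjusted p = 0.00497). The 3 lower genes included Ccne2 at -0.50 (adjusted p = 0.00486), whose 2 later Dox_DMSO libraries lay below every NoDox_DMSO library while the first lay above. With the trend over length and GC content removed, 9 were called higher and 2 lower, where 6.54% and 7.71% of all genes were. The numbers also pair the libraries in this comparison, and with them as a block 3 genes were called higher, Ccne1, E2f2 and Ung, and 2 lower, Rfc2 and Prim2, where 5.89% and 7.61% of all genes were.

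**Figure D2:**
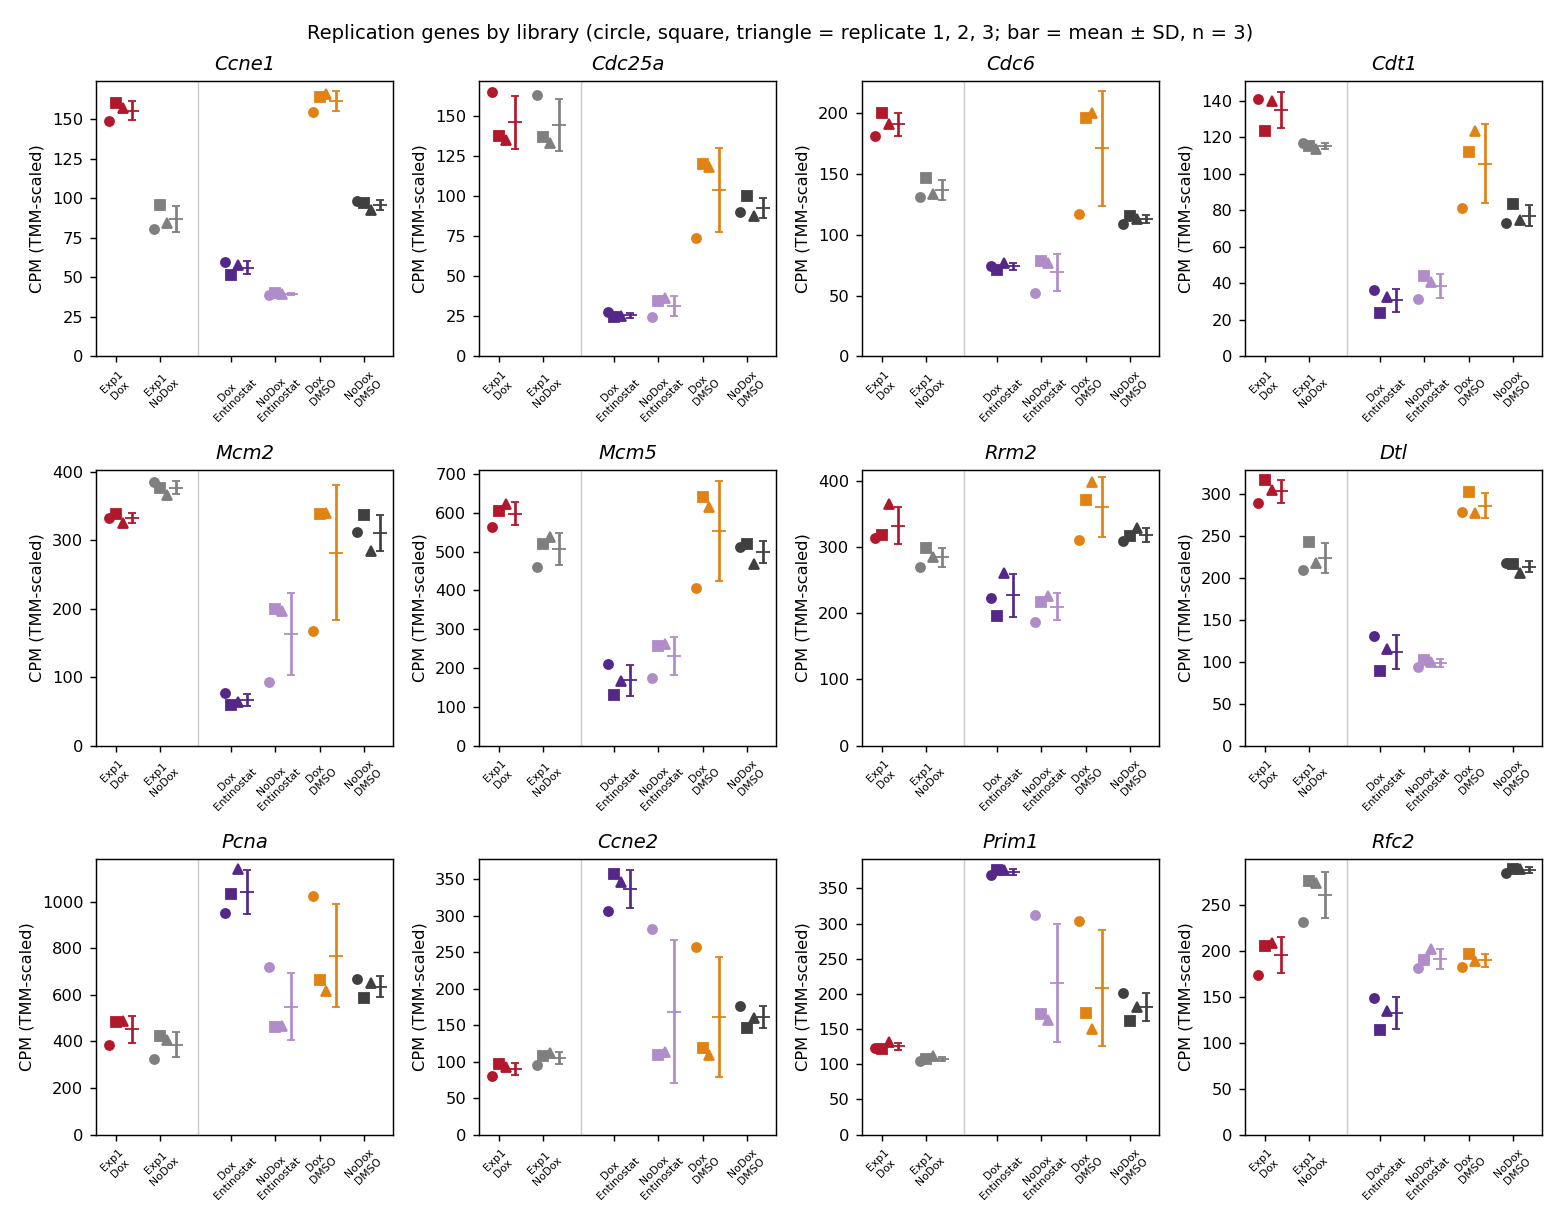
CPM of 12 of the genes in each library of the 6 groups (x axis), with circle, square and triangle for replicates 1, 2 and 3 and a bar for the mean ± SD (n = 3). Ccne1, Cdc25a, Cdt1, Mcm5 and Dtl are low in all 6 entinostat libraries, Ccne1 is high in all 6 doxycycline libraries without entinostat, and for Mcm2, Pcna, Ccne2 and Prim1 the first NoDox_Entinostat and first Dox_DMSO libraries lie apart from the other 2.

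Entinostat without doxycycline lowered 25 of the 53 genes within 6 h and raised none. Of 15051 genes tested, 16.9% were called lower and 30.3% higher. The median log2 fold change was -0.59 over the 53 genes and 0.069 over all genes, and 47 of the 53 lay below 0. DESeq2 and limma-voom also called 0 of the 53 higher, and called 27 and 26 lower. Their shares of all genes called are not given here. Summed over the 53 genes, the level was 6334 to 7223 CPM in NoDox_Entinostat and 9579 to 9890 CPM in NoDox_DMSO.

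The largest fall was that of Cdc25a, the phosphatase that activates the cyclin E kinase. It had 24.4, 34.3 and 36.2 CPM in NoDox_Entinostat, against 90.1, 99.9 and 87.9 CPM in NoDox_DMSO (log2 fold change -1.55 ± 0.21 (SE), edgeR adjusted p = 7.00e-05). Ccne1 had 39.1, 40.4 and 39.3 CPM in NoDox_Entinostat, against 98.2, 96.9 and 92.3 CPM in NoDox_DMSO (log2 fold change -1.27 ± 0.13 (SE), edgeR adjusted p = 1.10e-05). Its 3 NoDox_Entinostat libraries lay close together, far below the 3 NoDox_DMSO libraries. E2f1 had 28.3, 37.1 and 36.1 CPM in NoDox_Entinostat, against 47.9, 48.5 and 43.6 CPM in NoDox_DMSO (log2 fold change -0.46 ± 0.18 (SE), edgeR adjusted p = 0.0464). E2f8, an E2F that represses the same promoters, also fell (-0.75 ± 0.27). E2f2 had 56.2, 104 and 104 CPM in NoDox_Entinostat, against 53.5, 70.8 and 66.9 CPM in NoDox_DMSO (log2 fold change 0.47 ± 0.33 (SE), edgeR adjusted p = 0.274), and Ccne2 had 281, 109.9 and 114 CPM in NoDox_Entinostat, against 177, 147 and 159.9 CPM in NoDox_DMSO (log2 fold change 0.063 ± 0.37 (SE), edgeR adjusted p = 0.909). For these 2 genes the groups overlapped through the first NoDox_Entinostat library, which was low for E2f2 and high for Ccne2. Of the 7 cyclin E, Cdc25a and E2F genes, 4 fell.

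Among the licensing genes 3 of 4 fell. Orc1, the largest subunit of the origin recognition complex, had 39.0, 36.8 and 33.0 CPM in NoDox_Entinostat, against 91.6, 79.0 and 75.6 CPM in NoDox_DMSO (log2 fold change -1.18 ± 0.18 (SE), edgeR adjusted p = 0.000219). Cdt1 had 31.5, 44.1 and 40.7 CPM in NoDox_Entinostat, against 73.1, 83.5 and 74.8 CPM in NoDox_DMSO (log2 fold change -0.99 ± 0.21 (SE), edgeR adjusted p = 0.00157). Cdc6 had 51.8, 78.6 and 76.7 CPM in NoDox_Entinostat, against 109, 115 and 113 CPM in NoDox_DMSO (log2 fold change -0.71 ± 0.22 (SE), edgeR adjusted p = 0.0165). The groups did not overlap for any of the 3. Orc6, the smallest subunit of the complex, had a log2 fold change of -0.047 ± 0.30 and did not pass. Of the 6 helicase subunits 4 fell. Mcm5 had 174, 258 and 261 CPM in NoDox_Entinostat, against 512, 519 and 467 CPM in NoDox_DMSO (log2 fold change -1.11 ± 0.24 (SE), edgeR adjusted p = 0.00230). Mcm2 had 93.2, 199 and 197 CPM in NoDox_Entinostat, against 311, 337 and 285 CPM in NoDox_DMSO (log2 fold change -0.93 ± 0.31 (SE), edgeR adjusted p = 0.0239). In both the first NoDox_Entinostat library was the lowest of the 6. Mcm4 and Mcm3 had values of -0.83 ± 0.34 and -0.61 ± 0.29 and did not pass. Of the 6 helicase activation genes 4 fell, Cdc45, Gins1, Gins2 and Mcm10, with Mcm10 lowest at -0.94.

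At the fork the picture was mixed. None of the 4 polymerase alpha and primase genes passed, with log2 fold changes from -0.31 for Pola2 to 0.25 for Prim1. The polymerase delta subunits Pold1, Pold2 and Pold3 all fell (-0.81, -1.04 and -0.70), and the polymerase epsilon genes Pole and Pole2 did not pass. Pcna had 717, 463 and 468 CPM in NoDox_Entinostat, against 669, 586 and 652 CPM in NoDox_DMSO (log2 fold change -0.21 ± 0.24 (SE), edgeR adjusted p = 0.514), with overlap. Of the 5 loader subunits, Rfc2 alone was called (-0.59 ± 0.15). Rpa2, a single-strand binding subunit, Fen1, the flap nuclease, and Ung fell by 0.77, 0.80 and 0.68 on the log2 scale. Rrm2 had 186, 217 and 226 CPM in NoDox_Entinostat, against 308, 317 and 329 CPM in NoDox_DMSO (log2 fold change -0.60 ± 0.17 (SE), edgeR adjusted p = 0.0124). It was the 1 nucleotide supply gene of 4 that passed. Dtl had 93.2, 102 and 99.6 CPM in NoDox_Entinostat, against 217, 216 and 206 CPM in NoDox_DMSO (log2 fold change -1.12 ± 0.16 (SE), edgeR adjusted p = 0.000145). Chaf1b, a subunit of the histone chaperone that follows the fork, fell (-0.71 ± 0.18), while Slbp had 146, 149 and 154 CPM in NoDox_Entinostat, against 171, 172 and 169.6 CPM in NoDox_DMSO (log2 fold change -0.19 ± 0.15 (SE), edgeR adjusted p = 0.323).

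Scaling by library size alone, in which the median of all genes moved from 0.069 to 0.32, left 11 of the 53 called lower and 0 higher. Without the 2 libraries that stood apart, 38 were called lower and 2 higher, where 27.7% and 36.2% of all genes were. Ccne2 was then lower, at -0.53 (adjusted p = 0.00126), Pcna was lower at -0.45 (adjusted p = 0.00659), and E2f2 higher at 0.70 (adjusted p = 0.000501).

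Entinostat with doxycycline lowered 37 of the 53 genes and raised 2, where 29.9% of all 15051 genes were called lower and 33.9% higher. The median log2 fold change was -0.83 over the 53 genes and 0.14 over all genes. The summed level was 6862 to 7693 CPM in Dox_Entinostat and 9835 to 12131 CPM in Dox_DMSO. Both entinostat comparisons called 23 genes lower, which is 92.0% of the 25 lower without doxycycline and 62.2% of the 37 lower with it. Gins1 and Gins2 were called lower without doxycycline alone. The entinostat comparisons share no libraries, and 44 of the 53 fold changes had the same sign in both. Over all 15045 genes with a unique symbol, 82.0% had the same sign, and those called lower in both were 88.6% of the genes lower without doxycycline and 50.1% of those lower with it.

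All 6 helicase subunits were called lower, from -1.22 for Mcm3 to -2.08 for Mcm2. Mcm2 had 76.4, 59.4 and 64.0 CPM in Dox_Entinostat, against 168, 338 and 339.8 CPM in Dox_DMSO (log2 fold change -2.08 ± 0.32 (SE), edgeR adjusted p = 0.000138). Mcm4 had 87.8, 78.3 and 88.6 CPM in Dox_Entinostat, against 152, 363 and 359.8 CPM in Dox_DMSO (log2 fold change -1.78 ± 0.35 (SE), edgeR adjusted p = 0.000836). Mcm5 had 209, 129 and 166 CPM in Dox_Entinostat, against 406, 640.1 and 615 CPM in Dox_DMSO (log2 fold change -1.72 ± 0.25 (SE), edgeR adjusted p = 9.46e-05). The groups did not overlap, although the first Dox_DMSO library lay below the other 2 in each. Of the licensing genes, Cdt1 had 36.1, 23.9 and 32.5 CPM in Dox_Entinostat, against 81.3, 112 and 123 CPM in Dox_DMSO (log2 fold change -1.78 ± 0.21 (SE), edgeR adjusted p = 2.21e-05). Cdc6 had 74.3, 71.1 and 76.6 CPM in Dox_Entinostat, against 117, 196 and 200.1 CPM in Dox_DMSO (log2 fold change -1.21 ± 0.22 (SE), edgeR adjusted p = 0.000444). Orc1 fell as well (-1.12 ± 0.18), and Orc6 had 0.70 ± 0.30 and did not pass (adjusted p = 0.0598).

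Among the cyclin E, Cdc25a and E2F genes, 5 of 7 fell and 1 rose. Cdc25a had 27.7, 24.6 and 24.9 CPM in Dox_Entinostat, against 73.8, 119.9 and 118 CPM in Dox_DMSO (log2 fold change -2.01 ± 0.21 (SE), edgeR adjusted p = 9.23e-06). Ccne1 had 59.4, 51.5 and 57.6 CPM in Dox_Entinostat, against 154, 164 and 166 CPM in Dox_DMSO (log2 fold change -1.52 ± 0.13 (SE), edgeR adjusted p = 2.46e-06). E2f1 had 33.3, 37.9 and 36.8 CPM in Dox_Entinostat, against 40.5, 61.4 and 59.9 CPM in Dox_DMSO (log2 fold change -0.58 ± 0.18 (SE), edgeR adjusted p = 0.0117). These 3 genes had no overlap between the groups. E2f2 had 77.5, 102 and 99.7 CPM in Dox_Entinostat, against 52.6, 135 and 143 CPM in Dox_DMSO (log2 fold change -0.25 ± 0.33 (SE), edgeR adjusted p = 0.525), with overlap. With the length and GC trend removed its value was 0.44 (adjusted p = 0.0371), and without the 2 libraries it was -0.59 (adjusted p = 0.00122), so its direction depended on the processing.

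The 2 called rises were Ccne2 and Prim1, the catalytic primase subunit. Ccne2 had 307, 357 and 346 CPM in Dox_Entinostat, against 257, 118 and 109 CPM in Dox_DMSO (log2 fold change 1.06 ± 0.38 (SE), edgeR adjusted p = 0.0254). Prim1 had 369, 376 and 376 CPM in Dox_Entinostat, against 303, 173 and 149.9 CPM in Dox_DMSO (log2 fold change 0.84 ± 0.29 (SE), edgeR adjusted p = 0.0222). In both the first Dox_DMSO library lay between the 3 Dox_Entinostat libraries and the other 2 Dox_DMSO libraries. Without replicate 2 or 3 of Dox_Entinostat, or replicate 2 or 3 of Dox_DMSO, neither rise was called. After removal of the length and GC trend Ccne2 had 0.34 (adjusted p = 0.115) and Prim1 0.37 (adjusted p = 0.0194). In this comparison the cyclin E1 transcript was lower and the cyclin E2 transcript higher, and the Ccne2 call did not hold once the trend was removed.

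The single-strand binding genes Rpa1 and Rpa2 fell, as did Fen1 and Lig1, the nuclease and ligase of Okazaki fragments, and the uracil-removing Ung, with log2 fold changes from -0.75 to -1.51. Of the 5 polymerase delta and epsilon genes 4 fell, led by Pold2 (-1.46 ± 0.22), and Pole2 had 0.52 ± 0.24 and did not pass. Pcna had 950.1, 1034 and 1141 CPM in Dox_Entinostat, against 1024, 664 and 617 CPM in Dox_DMSO (log2 fold change 0.44 ± 0.24 (SE), edgeR adjusted p = 0.130), with overlap. The loader subunits Rfc3, Rfc4 and Rfc5 did not pass either, and Rfc1 and Rfc2 fell. Rrm2 had 223, 196 and 261 CPM in Dox_Entinostat, against 310.2, 371 and 398 CPM in Dox_DMSO (log2 fold change -0.67 ± 0.17 (SE), edgeR adjusted p = 0.00490). Rrm1, the large subunit of the same enzyme, also fell (-1.64 ± 0.31), while Tyms, which makes thymidylate, and Tk1 did not pass. Slbp had 195, 149 and 180.1 CPM in Dox_Entinostat, against 212, 219.6 and 233 CPM in Dox_DMSO (log2 fold change -0.35 ± 0.15 (SE), edgeR adjusted p = 0.0586). The fork protection genes Clspn and Timeless fell (-1.13 and -1.61), as did Dtl (-1.36).

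Scaling by library size alone, in which the median of all genes moved from 0.14 to 0.28, gave 31 lower and 6 higher. Without the 2 libraries that stood apart, 39 genes were called lower and 11 higher, where 34.7% and 43.1% of all genes were. Of the 39 lower genes 24 had a longest transcript over 3014 bases, the median of the 53, and of the 11 higher genes 1 did. The higher genes then included Pcna at 0.69 (adjusted p = 0.000215), Orc6 at 1.06 (adjusted p = 2.23e-06) and Rfc4 at 0.70 (adjusted p = 0.000168).

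**Figure D3:**
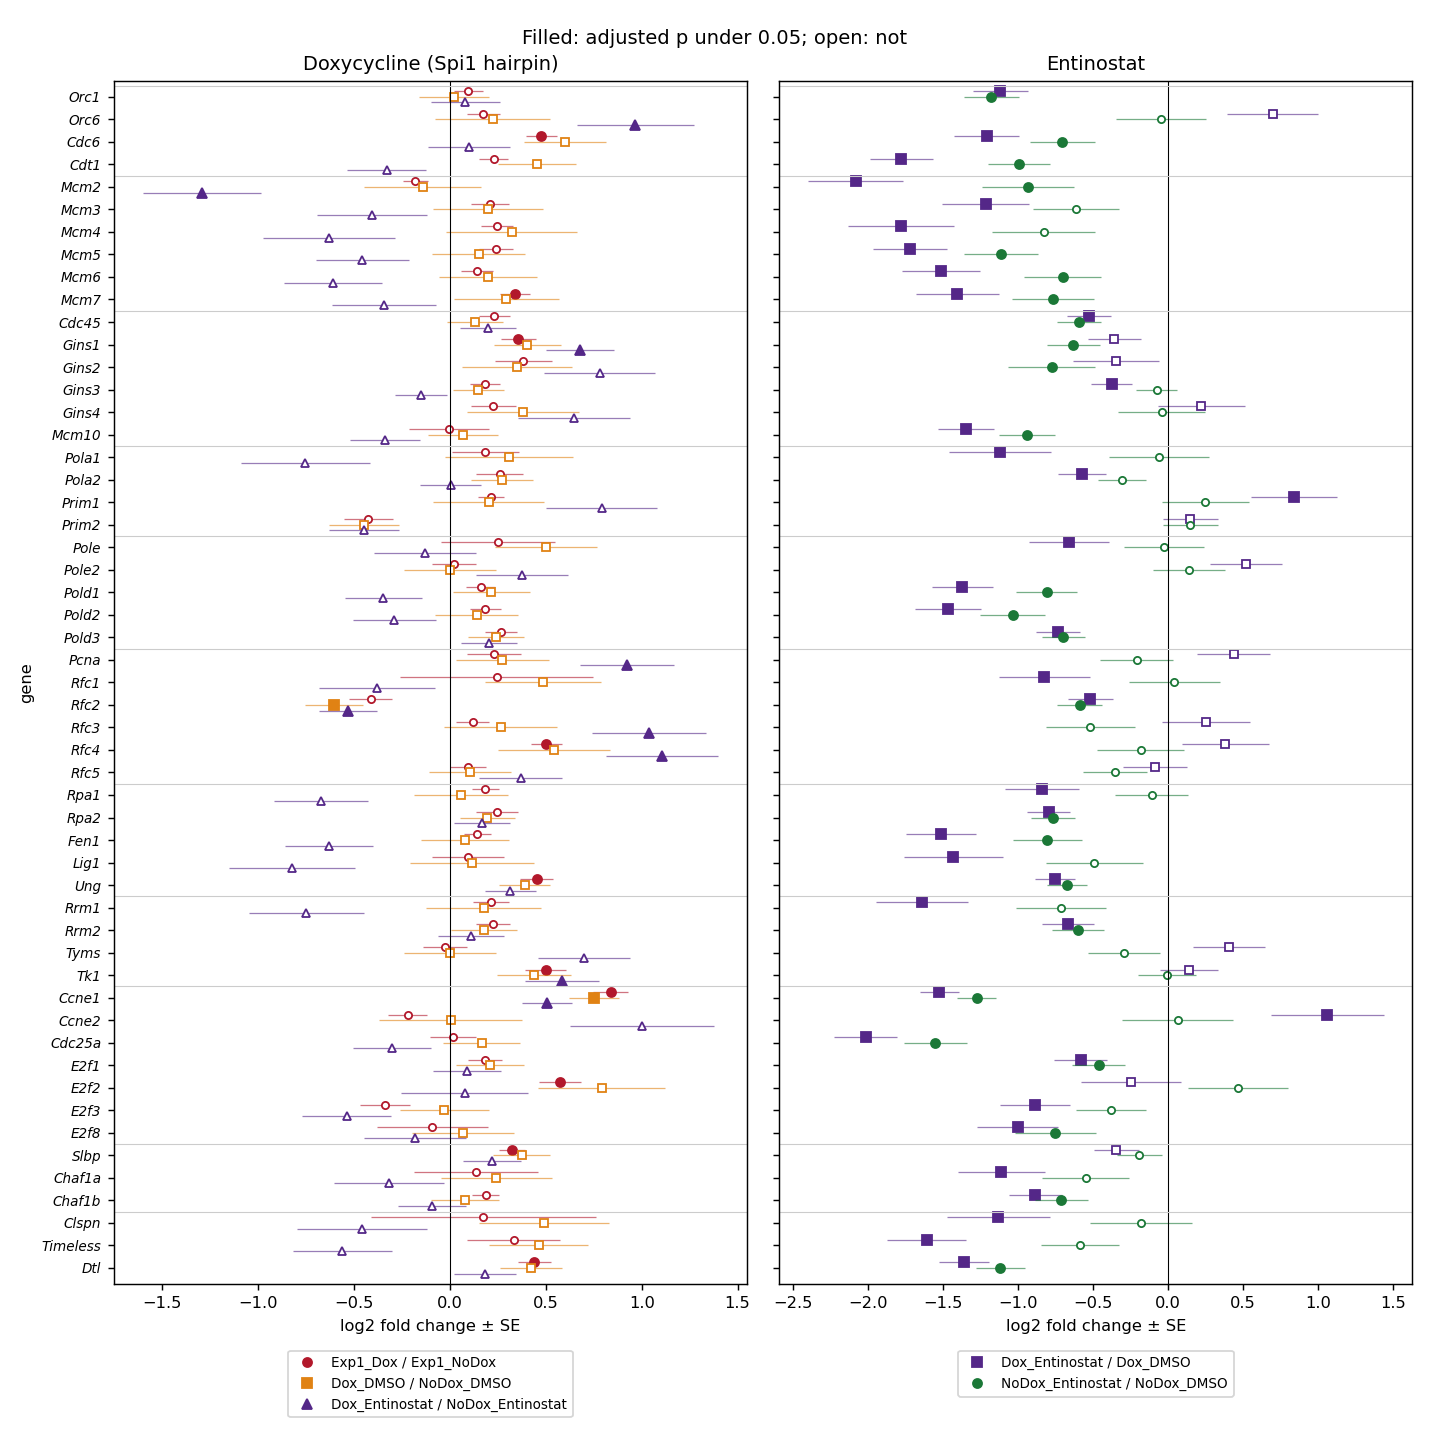
Log2 fold changes ± SE (x axis) of the 53 genes, grouped by role, for doxycycline (left: experiment 1, DMSO, entinostat) and entinostat (right: with and without doxycycline); filled symbols have an adjusted p under 0.05. On the right most symbols lie left of 0, with Ccne2 and Prim1 as the filled exceptions with doxycycline, and on the left Ccne1 is filled and right of 0 in all 3 comparisons.

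Doxycycline in the presence of entinostat gave few calls among these genes, and their median lay near that of all genes. Of the 53 genes 7 (13.2%) were called higher and 2 (3.77%) lower, where 8.96% and 15.1% of 15051 genes were. The median log2 fold change was -0.094 over the 53 genes and -0.079 over all genes. The rises were Rfc4, Rfc3, Orc6, Pcna, Gins1, Tk1 and Ccne1, and the falls Mcm2 and Rfc2. This comparison shares its NoDox_Entinostat libraries with the entinostat comparison without doxycycline and its Dox_Entinostat libraries with the one with doxycycline, so the values are not independent of those. The doxycycline comparison in DMSO likewise shares Dox_DMSO libraries with the one and NoDox_DMSO libraries with the other.

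Of the rises, 3 were in the clamp and its loader. Rfc4 had 581, 494 and 613 CPM in Dox_Entinostat, against 389, 199 and 196 CPM in NoDox_Entinostat (log2 fold change 1.11 ± 0.29 (SE), edgeR adjusted p = 0.0210). Rfc3 had 98.7, 106 and 104 CPM in Dox_Entinostat, against 74.8, 36.4 and 39.0 CPM in NoDox_Entinostat (log2 fold change 1.04 ± 0.30 (SE), edgeR adjusted p = 0.0277). Pcna had 950.1, 1034 and 1141 CPM in Dox_Entinostat, against 717, 463 and 468 CPM in NoDox_Entinostat (log2 fold change 0.92 ± 0.24 (SE), edgeR adjusted p = 0.0210). For these 3 genes the groups did not overlap, and the first NoDox_Entinostat library was the highest of its group for each. Orc6 had 267, 228 and 261 CPM in Dox_Entinostat, against 196, 94.3 and 96.8 CPM in NoDox_Entinostat (log2 fold change 0.97 ± 0.30 (SE), edgeR adjusted p = 0.0383). Its first NoDox_Entinostat library again lay nearest to the Dox_Entinostat libraries. Gins1 had 33.4, 26.6 and 33.9 CPM in Dox_Entinostat, against 24.1, 17.4 and 17.1 CPM in NoDox_Entinostat (log2 fold change 0.68 ± 0.17 (SE), edgeR adjusted p = 0.0187). Ccne1 differed less but with closer libraries: 59.4, 51.5 and 57.6 CPM in Dox_Entinostat, against 39.1, 40.4 and 39.3 CPM in NoDox_Entinostat (log2 fold change 0.50 ± 0.13 (SE), edgeR adjusted p = 0.0185). It was called higher with doxycycline in all 3 comparisons of doxycycline.

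The 2 falls were Mcm2 and Rfc2. Mcm2 had 76.4, 59.4 and 64.0 CPM in Dox_Entinostat, against 93.2, 199 and 197 CPM in NoDox_Entinostat (log2 fold change -1.29 ± 0.31 (SE), edgeR adjusted p = 0.0138). Rfc2 had 149, 114 and 134 CPM in Dox_Entinostat, against 181, 190.3 and 202 CPM in NoDox_Entinostat (log2 fold change -0.53 ± 0.15 (SE), edgeR adjusted p = 0.0271). Neither gene's groups overlapped. Among the genes named in every comparison, Ccne2 had the largest value that did not pass, 1.0 ± 0.38 (adjusted p = 0.0672), and Mcm5 (-0.46 ± 0.24), Cdt1 (-0.33 ± 0.20), Cdc6 (0.099 ± 0.21), Rrm2 (0.11 ± 0.17), E2f1 (0.089 ± 0.18), E2f2 (0.078 ± 0.33) and Slbp (0.22 ± 0.15) did not pass either.

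These calls changed when libraries were left out. Without replicate 3 of Dox_Entinostat, or replicate 2 or 3 of NoDox_Entinostat, 0 genes were called either way. Without replicate 1 of NoDox_Entinostat 14 were called higher and 16 lower. The shares of all genes called in these fits are not given here. Without the 2 libraries that stood apart, 15 were higher and 25 lower, where 26.1% and 35.7% of all genes were. Of the 25 lower genes 20 had a longest transcript over 3014 bases, the median of the 53, and of the 15 higher genes 2 did. With the trend removed 15 were higher and 2 lower, where 11.4% and 20.0% of all genes were. Gins1 had 0.061 (adjusted p = 0.795) and Rfc2 -0.23 (adjusted p = 0.321) with the trend removed and were no longer called, while Mcm2 had -0.92 (adjusted p = 0.00589) and Rfc4 0.57 (adjusted p = 0.00363) and stayed called. Scaling by library size alone, in which the median of all genes moved from -0.079 to -0.22, gave 5 higher and 5 lower.

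Whether doxycycline changed the response to entinostat was tested as an interaction: the log2 fold change of doxycycline under entinostat less the one under DMSO. None of the 53 genes was called by edgeR, DESeq2 or limma-voom. At an unadjusted p under 0.05 in edgeR stood 7 of the 53, and 2383 of all 15051 genes tested. Of all genes 0.166% were called higher and 0.106% lower. The estimates ran from -1.15 ± 0.43 for Mcm2 (adjusted p = 0.314) to 1.0 ± 0.53 for Ccne2 (adjusted p = 0.335). For the other genes named in every comparison they were -0.78 ± 0.29 for Cdt1, -0.71 ± 0.47 for E2f2, 0.65 ± 0.34 for Pcna, -0.61 ± 0.34 for Mcm5, -0.50 ± 0.30 for Cdc6, -0.25 ± 0.18 for Ccne1, -0.15 ± 0.21 for Slbp, -0.12 ± 0.25 for E2f1 and -0.068 ± 0.24 for Rrm2. The larger count of falls with entinostat under doxycycline, 37 against 25, is therefore not a tested difference. Without the 2 libraries that stood apart, 13 genes were called higher and 28 lower, where 21.5% and 30.0% of all genes were. Of the 28 lower genes 21 had a longest transcript over 3014 bases, the median of the 53, and of the 13 higher genes 2 did. The part of length in these calls was not tested. Leaving out the first NoDox_Entinostat library alone gave 4 higher and 12 lower, and leaving out the first Dox_DMSO library alone gave 3 and 11. The shares of all genes called in these 2 fits are not given here, so the counts are not read as particular to the 53 genes.

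With all 12 libraries, transcript length moved with the fold changes mainly in the comparisons that include Dox_Entinostat. The 53 genes had a median longest transcript of 3014 bases. For entinostat with doxycycline, the median log2 fold change was -1.17 over the 26 longer genes and -0.38 over the 27 shorter ones, and Pearson's r with log2 length was -0.49 across the 53 genes, which share the same libraries. For doxycycline in entinostat the medians were -0.39 and 0.22 (r = -0.62). For entinostat without doxycycline they were -0.65 and -0.46 (r = -0.10), and for doxycycline in DMSO 0.21 and 0.21 (r = -0.039). In these 2 comparisons, length slopes of opposite sign stood within NoDox_Entinostat and within Dox_DMSO. Without the 2 libraries that stood apart, r was 0.26 for entinostat without doxycycline (medians -0.51 and -0.53). It was 0.38 for doxycycline in DMSO (medians 0.41 and 0.22), where 16 longer and 7 shorter genes were called higher. With the trend over length and GC content of all genes removed, the medians for entinostat with doxycycline were -0.84 for the longer genes and -0.39 for the shorter ones. For doxycycline in entinostat they were -0.13 and 0.15. Removing the trend left 0 genes called in the interaction and 37 and 32 genes called lower with entinostat, with and without doxycycline.

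**Figure D4:**
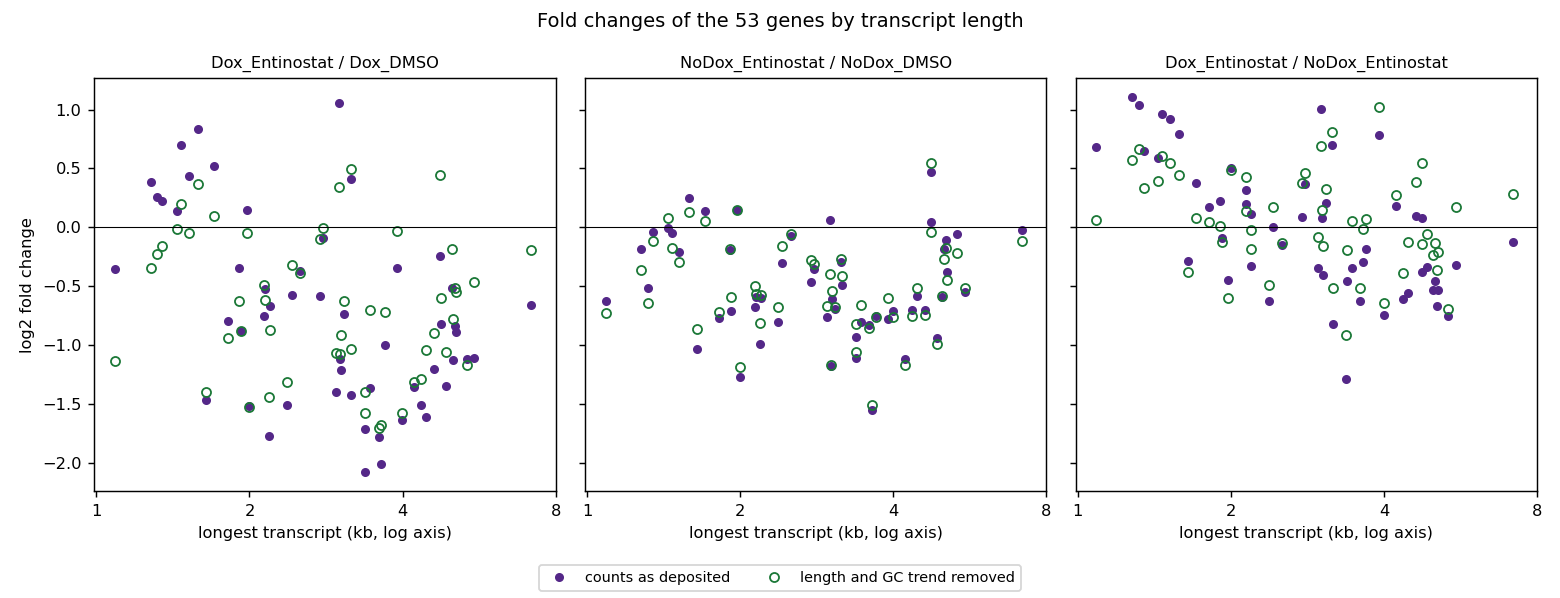
Log2 fold change (y axis) against longest transcript length in kb (log axis) for the 53 genes in 3 comparisons, from the counts as deposited (filled) and with the length and GC trend of all genes removed (open). Filled points slope downward for Dox_Entinostat against Dox_DMSO (r = -0.49) and against NoDox_Entinostat (r = -0.62), and less so for NoDox_Entinostat against NoDox_DMSO (r = -0.10); most open points of the first panel still lie below 0.

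Set beside the promoter letters, 10 of the 11 genes with an E2F-type match fell with entinostat under doxycycline and 24 of the 34 matched genes without one. Without doxycycline the counts were 7 of 11 and 15 of 34. Of all genes tested, 29.9% were called lower with entinostat under doxycycline and 16.9% without it. The difference between genes with and without the letters was not tested. The median log2 fold changes were -1.21 with the letters and -0.81 without them under doxycycline, and -0.71 and -0.57 without doxycycline. Cdc25a, Orc1, Dtl and Cdc6, printed above with E2F-type letters, fell in both comparisons, and so did Ccne1, whose window held none. With a 300-base window, 250 before and 50 after the start, 19 of the 45 genes held the letters (42.2%), against 2.12% of the whole table.

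Further lists of the same processes were set beside the share of all genes called. Of 44 further replication factors, 0 rose and 13 fell with entinostat without doxycycline (median -0.37), and 3 rose and 22 fell with it (median -0.54). All genes called lower were 16.9% without doxycycline and 29.9% with it, and all genes called higher 30.3% and 33.9%. Dctd, which deaminates dCMP on the way to thymidylate, fell in both (-1.67 with doxycycline and -1.80 without). Uhrf1, which brings the maintenance methyltransferase to replicated DNA, had the largest fall with doxycycline (-1.86 ± 0.36), while Rpa3, the smallest single-strand binding subunit, rose (1.5 ± 0.47). For both the first Dox_DMSO library stood apart, with 115, 283 and 280 CPM for Uhrf1 and 189, 64.6 and 63.8 CPM for Rpa3. The histone chaperone Asf1a and the alternative loader subunit Chtf18 fell without doxycycline (-1.06 and -1.04). With doxycycline, 3 of the 44 rose and 1 fell in experiment 1, 1 rose and 1 fell in DMSO, and 5 rose and 1 fell in entinostat. As shares of the 44 the rises were 6.82%, 2.27% and 11.4%, against 5.26%, 3.77% and 8.96% of all genes, and the falls 2.27% in each, against 8.36%, 5.53% and 15.1%. Pole3, an accessory subunit of polymerase epsilon, was the 1 fall in each, at -0.95 ± 0.097, -0.96 ± 0.23 and -1.26 ± 0.23. Dck, which salvages deoxycytidine, rose in experiment 1 and in DMSO (0.56 and 0.70), and Mtbp, needed to fire origins, rose in experiment 1 (0.43). Gmnn, the inhibitor of Cdt1, and Rpa3 rose with doxycycline in entinostat (1.22 and 1.69). The first NoDox_Entinostat library stood apart for both, with 429, 189 and 194 CPM for Gmnn and 164, 56.0 and 57.6 CPM for Rpa3.

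Of 24 tested regulators of the passage from G1 into S phase, 1 rose and 15 fell with entinostat under doxycycline, and 3 rose and 8 fell without it. The falls were 62.5% and 33.3% of the 24, against 29.9% and 16.9% of all genes, and the rises 4.17% and 12.5%, against 33.9% and 30.3%. E2f4, a repressive E2F, fell in both (-1.49 and -0.98), as did Cdk6, a kinase of the D-type cyclins (-1.23 and -0.86). Ccna2, the S phase cyclin A, fell in both as well (-1.30 and -0.76). Fbxw7, which marks cyclin E for destruction, fell with doxycycline (-1.36) and had -0.24 without it (adjusted p = 0.523). Cdc25b, a phosphatase of the cyclin-dependent kinases, rose with entinostat without doxycycline (1.49 ± 0.28). It also rose with doxycycline in experiment 1 (1.0 ± 0.097) and in DMSO (1.34 ± 0.28). In experiment 1, 4 of the 24 rose and 1 fell, among them Rb1, the retinoblastoma gene (0.53), and E2f5, which fell (-0.66). In DMSO 1 rose and 0 fell with doxycycline, and in entinostat 1 rose and 4 fell, with Ccnd1, Fbxw7 and Rbl2 lowest (-1.10, -0.96 and -0.88). As shares of the 24 the rises were 16.7% in experiment 1, 4.17% in DMSO and 4.17% in entinostat, against 5.26%, 3.77% and 8.96% of all genes, and the falls 4.17%, 0% and 16.7%, against 8.36%, 5.53% and 15.1%. Neither list had a gene called by edgeR in the interaction. There 3 of the 44 replication factors and 5 of the 24 regulators had an unadjusted p under 0.05, and so did 2383 of all 15051 genes.

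Cdkn1a, an inhibitor of the cyclin-dependent kinases, stood against the direction of most replication genes under entinostat. It had 19.2, 27.0 and 28.0 CPM in Dox_Entinostat, against 5.55, 13.8 and 15.2 CPM in Dox_DMSO (log2 fold change 1.10 ± 0.36 (SE), edgeR adjusted p = 0.0163). Without doxycycline it had 23.7, 46.5 and 44.5 CPM in NoDox_Entinostat, against 4.07, 6.86 and 6.00 CPM in NoDox_DMSO (log2 fold change 2.76 ± 0.38 (SE), edgeR adjusted p = 8.34e-05). In experiment 1 it had 9.31, 12.5 and 11.5 CPM in Exp1_Dox, against 4.33, 5.90 and 4.41 CPM in Exp1_NoDox (log2 fold change 1.19 ± 0.18 (SE), edgeR adjusted p = 0.00854), where Ccne1, Cdc6 and E2f2 were higher too. For doxycycline in DMSO its value did not pass (1.03 ± 0.36, adjusted p = 0.107). For doxycycline in entinostat Cdkn1a lay the other way, with a mean of 24.8 CPM in Dox_Entinostat against 38.2 CPM in NoDox_Entinostat, and these groups overlapped.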

How the data were processed

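RNA of 18 libraries was analysed. The authors deposited raw counts per gene, with experiments 1 and 2 in separate tables. The tools bcl2fastq (version 2.17.1.14), DESeq2 and STAR and the mm10 build are named, without roles, in the submitters' processing notes, and the counter and the annotation are not given in the sources used here. Per the labels' protocols the library kit does not mark strand, so reads of a gene and of an overlapping antisense gene are not separated. The experiment 1 table held no count under 1, and 3543 genes stood at 1 in every library.

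Each experiment was fitted alone with edgeR 4.0.16 in R 4.3.3 (quasi-likelihood, group means, TMM factors, filterByExpr), which tested 13811 and 15051 genes. Biological coefficients of variation were 0.194 and 0.242 (common values). Each test was two-sided, with Benjamini-Hochberg adjustment over all genes tested and a threshold of 0.05; scripts were tested on simulated data. CPM are TMM-scaled and comparable within an experiment. Counts without molecular identifiers carry more than counting error, and p-values measure the spread between libraries. Lengths came from GENCODE M21 (mm10), and promoter windows from RefSeq (GRCm38.p6).

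Same-numbered libraries of experiment 1 had deviations from the group means correlated at 0.829, 0.724 and 0.313. Those of the doxycycline comparison in DMSO correlated at 0.334, 0.267 and 0.102, all over the limit of 0.1. Libraries with different numbers reached 0.259 in experiment 1 and 0.214 in that comparison. The other comparisons of 2 groups did not meet the limit, narrowly so for entinostat without doxycycline (0.336, 0.315 and 0.0964).

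Tried as alternatives were library size alone, RLE factors, a filter of 1 CPM in 3 libraries, no filter, DESeq2 1.42.0, limma-voom 3.58.1, the replicate block, each library left out, experiment 1 counts minus 1, experiment 2 without 2 libraries, the 2 groups alone and a 300-base promoter window. Removal of a length and GC trend (splines with 4 degrees of freedom, genes of at least 2 log2 CPM), with and without the block, was added after seeing the data. Members and lists were chosen with earlier results of these data known. Named genes were 11 fixed ones, up to 5 largest called rises and falls per comparison, Spi1, Cdkn1a and, from each of the further lists, up to 3 largest called changes.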

Additional observations from a re-analysis of the deposited data

How the results depend on the processing

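Counts below are genes of the 53 called higher and lower. Where no share of all genes is printed for a fit, here or above, the count describes that fit and is not set against all genes. For doxycycline in experiment 1 (10 and 0), leaving out single libraries gave 1 to 10 higher and 0 to 1 lower, no filter 2 higher, DESeq2 2 lower, the replicate block 39 and 5, the length and GC trend removed 2 lower, and both together 42 and 5. For doxycycline in DMSO (1 and 1), single libraries left out gave 1 to 3 and 0 to 2, DESeq2 4 higher, no filter 0 lower, the block 3 and 2, the trend removed 9 and 2, both together 13 and 2, and the 2 libraries that stood apart left out 23 and 3. For doxycycline in entinostat (7 and 2), single libraries left out gave 0 to 14 and 0 to 16, DESeq2 12 and 4, limma-voom 11 higher, the block 13 and 7, library size alone 5 lower, no filter 10 lower, the 2 groups alone 3 and 1, the trend removed 15 higher, with the block 18 higher, and the 2 libraries left out 15 and 25. For entinostat without doxycycline (0 and 25), single libraries left out gave 0 higher and 19 to 30 lower, library size alone 11 lower, the trend removed 1 higher with or without the block, and the 2 libraries left out 2 and 38. For entinostat with doxycycline (2 and 37), single libraries left out gave 0 to 9 and 33 to 39, library size alone 6 higher, 1 CPM in 3 libraries, the block and the 2 groups alone 4 higher each, and the 2 libraries left out 11 higher. For the interaction (0 and 0), single libraries left out gave 0 to 4 and 0 to 12, and the 2 libraries left out 13 and 28. RLE factors and, in experiment 1, counts minus 1 moved none of these counts by over 1.5 times. In 3 cases a value was called in the opposite direction under an alternative. Ccne2 had -0.50 (adjusted p = 0.00486) for doxycycline in DMSO and -0.53 (adjusted p = 0.00126) for entinostat without doxycycline when the 2 libraries were left out, and E2f2 had 0.44 (adjusted p = 0.0371) for entinostat with doxycycline with the trend removed and 0.46 (adjusted p = 0.00356) with the replicate block as well. The cause of these changes was not tested. Of the 4 comparisons of 2 groups in experiment 2, the replicate numbers met the pairing limit for doxycycline in DMSO alone. With no control hairpin, effects of the drug doxycycline and of the loss of Spi1 cannot be told apart.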
